A study of Mus musculus with 12 samples.

Results

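Alpha-defensins are the cryptdins of the mouse, and 9 rows of the array table that carry their names were examined. The rows were taken by symbol alone (DEFCR4, DEFCR5, DEFCR6, DEFCR20, DEFCR21, DEFCR26, DEFCR-RS7, DEFA1 and AY761184), and all 9 were found among the 18090 rows. Gene expression in the proximal small intestine had been measured on a 1-colour Illumina array in 6 control mice and 6 mutant mice, labelled P6, all of a mixed C57/BL6;129Ola strain. The mutants were villinCre;Shp2fl animals, in which Cre recombinase driven by the villin promoter acts in the intestinal epithelium on a floxed allele of Ptpn11, the gene of the phosphatase Shp2. The labels call the other animals control and give no genotype for them, and mutants and controls shared tissue, age label and strain label. RNA came from a whole piece of intestine, so epithelium, stroma, muscle and immune cells were read together. In such a sample a difference in the number of Paneth cells and one in the defensin RNA of each Paneth cell cannot be told apart.

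Paneth cells sit at the base of the small intestinal crypts and release granules of antimicrobial peptides into the crypt lumen. Alpha-defensins are the most diverse of these peptides. They are made as precursors, which in the mouse are cut to their active form by the matrix protease Mmp7, and they kill bacteria by disrupting their membranes. Cryptdin-related sequence peptides, which the DEFCR-RS rows are named for, share the signal sequence and the prosegment of the precursor but have another mature part. In the mouse, Paneth cells mature in the weeks after birth, and the set of alpha-defensin genes carried differs between inbred strains. Wnt signalling through TCF/LEF factors is known to act on cryptdin genes in the crypt.

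The family lies in a cluster on chromosome 8, where the RefSeq annotation of GRCm38.p6 holds 28 protein-coding genes named Defa and a number. By synonym, 4 of the rows matched 1 gene each: DEFCR5 is Defa5, DEFCR21 is Defa21, DEFCR26 is Defa26 and DEFCR-RS7 is Defa31. DEFCR20 matched both Defa20 and Defa32, and DEFCR4, DEFCR6, DEFA1 and AY761184 matched no entry and are named only. Upstream sequences from the RefSeq promoter table (GRCm38.p6) are shown for 4 genes because their rows behaved in different ways. The rows of Defa21 and Defa20 were high in every mutant, whereas those of Defa31 and AY761185, an alpha-defensin outside the 9 rows, were high in mutant 1 only. Each sequence is the 250 bases before the annotated transcript start, 5′ to 3′, at chr8:21025295-21025544 (plus strand), chr8:21509008-21509257 (plus strand), chr8:21191323-21191572 (plus strand) and chr8:20944749-20944998 (minus strand). Capitals mark matches to the TCF/LEF-type motif CTTTGAT, read here on the other strand as ATCAAAG, and to the TATA box TATAAA.
Defa21: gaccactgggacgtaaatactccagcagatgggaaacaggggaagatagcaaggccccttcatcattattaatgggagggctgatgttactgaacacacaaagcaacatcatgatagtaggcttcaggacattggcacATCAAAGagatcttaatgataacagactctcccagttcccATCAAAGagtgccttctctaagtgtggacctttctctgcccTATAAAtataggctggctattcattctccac
Defa20: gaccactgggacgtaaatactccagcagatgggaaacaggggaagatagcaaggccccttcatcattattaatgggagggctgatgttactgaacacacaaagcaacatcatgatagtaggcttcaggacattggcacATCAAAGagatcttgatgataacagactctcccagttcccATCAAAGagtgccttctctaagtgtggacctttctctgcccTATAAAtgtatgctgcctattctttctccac
Defa31: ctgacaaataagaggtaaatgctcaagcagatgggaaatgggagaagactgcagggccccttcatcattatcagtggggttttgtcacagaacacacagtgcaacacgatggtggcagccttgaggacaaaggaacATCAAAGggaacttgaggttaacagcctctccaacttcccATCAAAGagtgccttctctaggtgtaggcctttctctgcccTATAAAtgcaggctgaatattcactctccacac
AY761185: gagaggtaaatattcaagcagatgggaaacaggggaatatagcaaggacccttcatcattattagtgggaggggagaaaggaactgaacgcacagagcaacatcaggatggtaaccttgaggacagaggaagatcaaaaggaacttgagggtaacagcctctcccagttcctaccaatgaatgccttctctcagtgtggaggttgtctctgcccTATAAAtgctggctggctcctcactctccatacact

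The upstream stretches were close to identical within one subgroup of the family. Those of Defa21 and Defa20 shared 245 of 250 bases, and those of Defa21 and Defa22 all 250, as did those of Defa31 and Defa23. Between Defa21 and Defa31 199 bases were identical, and between Defa21 and AY761185 also 199. Defa21, Defa20 and Defa31 each held 2 matches to CTTTGAT on the same strand, the first base lying 112 and 72 bases before the start in Defa21 and Defa20, and 114 and 74 bases before it in Defa31. The AY761185 stretch held none. Among all 32851 promoters of the table, 3.21% held at least 1 match on either strand and 0.0822% (27) held 2 or more, and 9 of those 27 were alpha-defensin promoters. Over the 17 alpha-defensin promoters in the table, 9 held 2 matches, 4 held 1 and 4 held none. A TATA box match, which overlapped no CTTTGAT match in the sequences shown, was present in 16 of the 17 and in 12.4% of all promoters. The motif pair was present upstream of Defa21 and Defa20, whose rows rose in all mutants, and of Defa31, whose row was high in mutant 1 only. The promoter table held no entry for Defa5 or Defa26, and DEFCR6, DEFA1 and AY761184 matched no gene. The upstream sequences of these other risen rows were therefore not seen, and any part of the motif in the rise was not tested. The sequences are those of the C57BL/6J reference and were not read in these mice, and a match of letters is not a measured binding site.

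**Figure D1:**
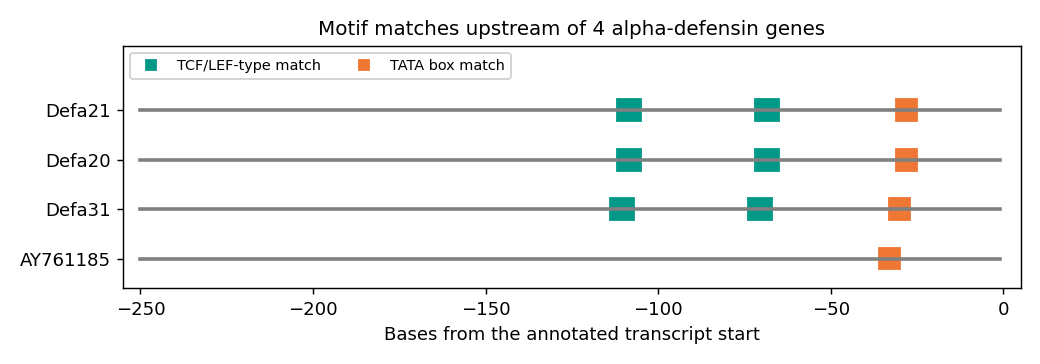
Positions of the matches upstream of Defa21, Defa20, Defa31 and AY761185, in bases from the annotated transcript start. Green boxes are matches to the TCF/LEF-type motif (2 each in the first 3 genes, none in AY761185) and orange boxes are TATA box matches (1 in each).

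Before the rows are compared, the state of the samples is given in brief. Values are deposited intensities in arbitrary units on a linear scale, background-subtracted, so that some lie below 0. The size of the lowest value, 27.8, served as a noise limit. Ptpn11 was not lower in the mutants (1288 ± 124 in controls and 1498 ± 118, SD, n = 6 each, limma adjusted p = 0.0763). Of 8 epithelial markers with a row 1 was called, against 9.19% of all rows. Their summed intensity was 30565 to 37320 in controls and 31473 to 38116 in mutants. Fabp1 and Fabp2, however, were under the noise limit in every mouse. Pancreatic acinar transcripts stood out in control 4 and mutant 1, with a summed intensity over 16 rows of 93665 and 52728 against 2044 to 13190 in the other mice.

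Of the 9 alpha-defensin rows, 7 rose in the mutants and none fell. Across all rows of the array 9.19% were called, 4.71% higher and 4.48% lower (limma with Benjamini-Hochberg adjustment over 18090 rows, threshold 0.05). In each of these 7 rows every mutant lay above every control, which was true of 2.48% of all rows (4.69% of all rows did not overlap in either direction). The median log2 difference of the 9 rows was 3.06, against -0.01 over all rows. All 7 calls were kept in every alternative computed, including those without control 4 and mutant 1. For each of the 7 the exact permutation test over all assignments of the mice gave p = 0.00216 (two-sided), the smallest that 6 against 6 mice allow. Log2 differences are mutant minus control on a log2 scale with an offset of 50, which shrinks the difference of dim rows, and folds are ratios of the deposited group means. Rows differ in their probes, so levels are compared between mice within a row and not between rows. Since near-identical transcripts can bind each other's probes, and the sources used here give no probe sequences, what each row reads apart from its relatives is uncertain.

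DEFCR5, the row of Defa5, read 321.5, 69, 49, 82.7, 27.4 and 65 in controls 1 to 6. In mutants 1 to 6 it read 17281.7, 6936, 15229.2, 3720.9, 9968.9 and 12508.5. Controls were thus near background apart from control 1, while the lowest mutant, mutant 4, was more than an order of magnitude above the highest control. The group means were 102.4 ± 109.0 and 10941 ± 5102 (SD, n = 6), or 106.8-fold, with a log2 difference of 5.98 (SE 0.37, limma adjusted p = 5.03e-07). Without control 1 the control mean was 58.6 ± 21.2 (SD, n = 5) and the fold 186.6, with a log2 difference of 6.25 (adjusted p = 1.92e-07). DEFCR26, the row of Defa26, ranged from 44.8 to 256.5 in controls (median 78.6) and from 1625.5 to 11430.6 in mutants (median 7931). Its mean rose 66.0-fold, a log2 difference of 5.19 (SE 0.39, adjusted p = 2.36e-06). It was also the most uneven of the 7 rows among mutants, mutant 3 reading 7.03 times the value of mutant 4.

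DEFCR20, which matches Defa20 and Defa32, was well above background in the controls already. It ranged from 781.8 to 1711.2 in controls (median 982.9) and from 7145.2 to 16545 in mutants (median 14936). The mean rose 12.2-fold from 1094 ± 337 to 13358 ± 3622, with a log2 difference of 3.50 (SE 0.21, adjusted p = 4.41e-07). DEFCR21, the row of Defa21, was near the noise limit in controls, where 4 of 6 mice lay under it. It ranged from 16.2 to 62.7 in controls (median 21.6) and from 329.4 to 1609.8 in mutants (median 819.7), a log2 difference of 3.06 (SE 0.27, adjusted p = 8.78e-06). AY761184, an alpha-defensin named by its accession only, ranged from 13.8 to 75.4 in controls (median 37.6), where 3 of 6 mice lay under the noise limit, and from 627.1 to 2350.9 in mutants (median 1696). Its log2 difference was 3.72 (SE 0.26, adjusted p = 1.66e-06). Several controls of both rows lay in the noise, and with values floored at 1 the log2 differences were 4.86 for DEFCR21 and 5.32 for AY761184.

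DEFA1 and DEFCR6 had the smallest log2 differences of the 7, and their groups were separated by the narrowest gaps on the log2 scale. DEFA1 read 613.9 and 383.6 in controls 1 and 2 and 95.8 to 132.7 in the other 4 controls. The mutants ranged from 671.7 in mutant 4 to 3795.6 in mutant 1 (median 1411). The mean rose 6.80-fold from 244.6 ± 210.3 to 1664 ± 1093, a log2 difference of 2.49 (SE 0.40, adjusted p = 0.00145). DEFCR6 read 3178.5 and 2310.8 in controls 1 and 2 and 689.6 to 1388.4 in the other controls, so the same pair of controls stood highest. Its mutants ranged from 3597.7 to 7336.4 (median 4930), and the mean rose 3.31-fold from 1577 ± 976 to 5219 ± 1338. The log2 difference was 1.84 (SE 0.32, adjusted p = 0.00229), and no mutant fell below control 1.

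**Figure D2:**
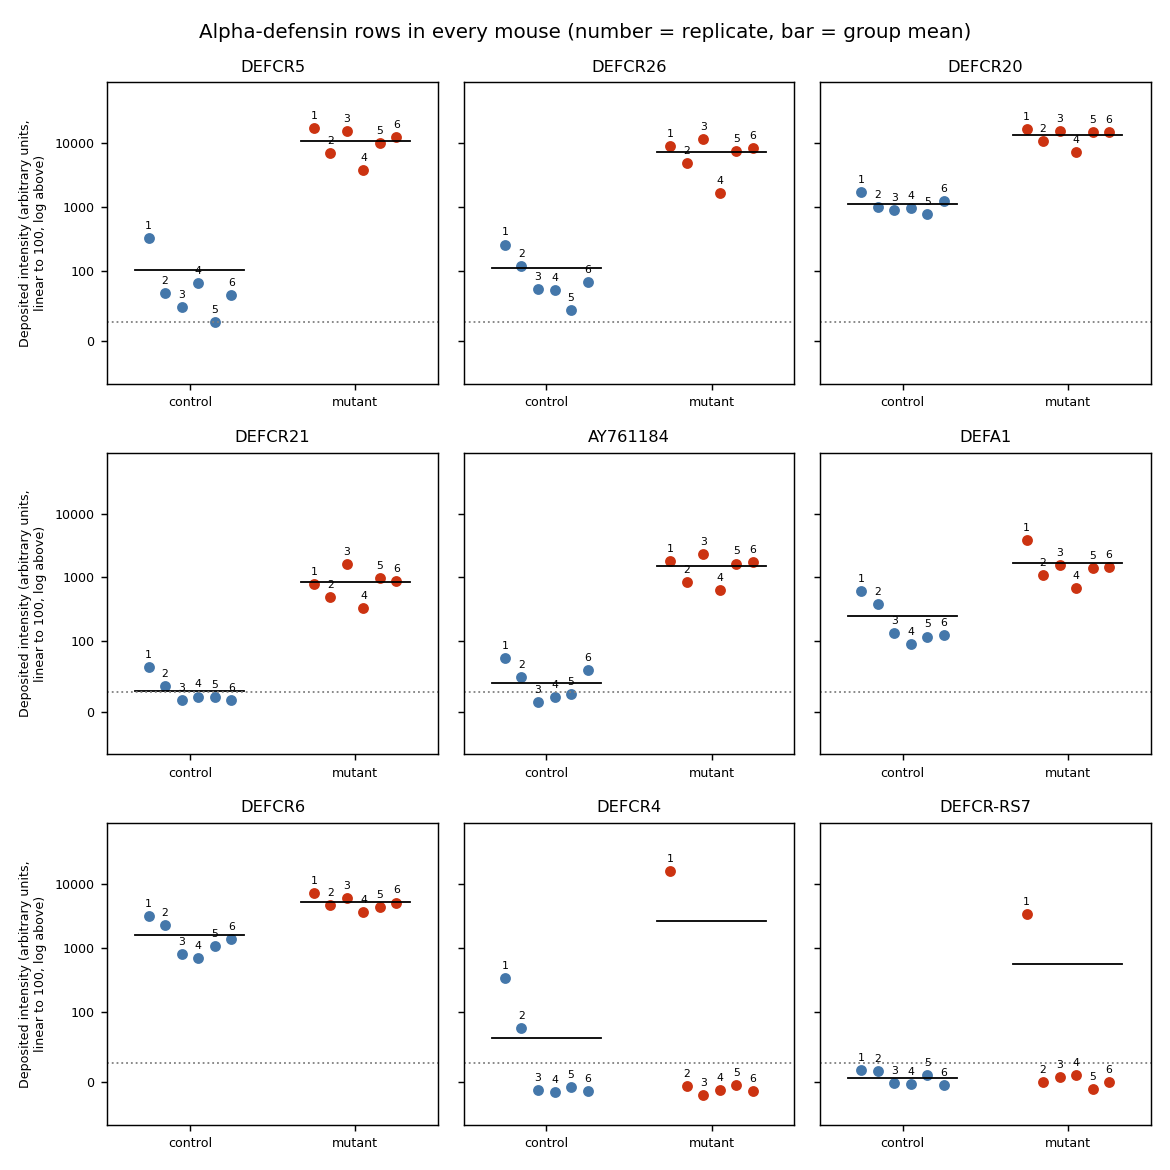
Deposited intensity of each alpha-defensin row in every mouse, on an axis that is linear up to 100 and logarithmic above. Points are mice, numbered by replicate, bars are group means (n = 6) and the dotted line is the noise limit of 27.8; in 7 rows the groups do not overlap, while DEFCR4 and DEFCR-RS7 are high in mutant 1.

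DEFCR4 and DEFCR-RS7 did not pass, and both were set apart by a single mutant. DEFCR4 read 340.4 and 76.3 in controls 1 and 2 and -13.9 to -6.6 in controls 3 to 6. Mutant 1 read 15808, while mutants 2 to 6 read -5, -18.2, -11.2, -4.2 and -11.6. The row was therefore above the noise limit in 3 of 12 mice, from both groups, and within it in the other 9. The log2 difference over all mice was 0.67 (SE 1.20, 95% interval -1.90 to 3.24, limma adjusted p = 0.832, exact permutation p = 0.84). Without mutant 1 it turned to -0.66 (adjusted p = 0.452), since the remaining mice above the limit were both controls. DEFCR-RS7, the row of Defa31, read -4.1 to 17.5 in controls, 3343.9 in mutant 1 and -8.9 to 10.2 in the other mutants. Its log2 difference was 0.85 (SE 0.79, 95% interval -0.83 to 2.54, adjusted p = 0.616, exact permutation p = 0.76), and -0.07 without mutant 1. The means of these rows describe no mouse, and no fold is given for them.

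Whether these rows changed less than the other 7 was computed for each of the 14 pairs. The pairs were picked by whether the rows had passed in these same mice, so the p-values below are descriptive only. The log2 differences of the 7 exceeded that of DEFCR4 by 1.17 to 5.31 and that of DEFCR-RS7 by 0.99 to 5.13. On the per-mouse difference of the log2 values of a pair, the exact permutation test gave p from 0.00216 to 0.424 (two-sided), with 8 of 14 under 0.05 and 6 after adjustment over the pairs. The exact p was 0.0108 for DEFCR5 against DEFCR4 and 0.424 for DEFCR6 against DEFCR4. Without mutant 1, the mouse that set both rows apart, all 14 pairs were under 0.05, and with values floored at 1 only 3 were.

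**Figure D3:**
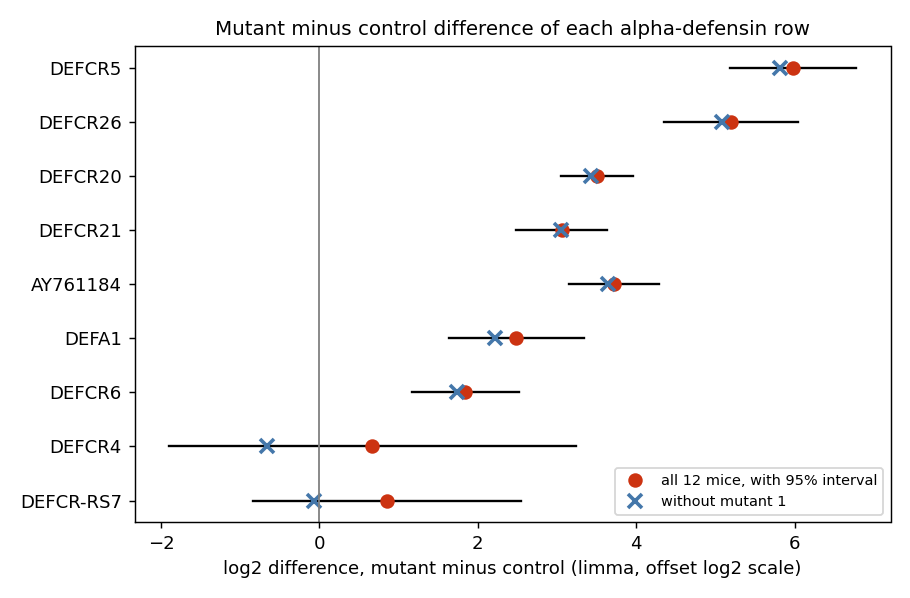
Log2 difference, mutant minus control, of each alpha-defensin row from limma. Red points with lines are the values over all 12 mice with their 95% interval, and blue crosses are the values without mutant 1, which change sign for DEFCR4 (0.67 to -0.66) and DEFCR-RS7 (0.85 to -0.07) and stay positive for the other 7.

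Of the array's 18090 rows, 4 were above 100 in mutant 1 and within the noise limit in all 11 other mice, and 3 of these were alpha-defensin rows. They were DEFCR-RS7, AY761185 (377.5 in mutant 1 and -8.5 to 7.2 elsewhere) and DEFCR-RS10, another cryptdin-related sequence (119 in mutant 1 and -14.1 to 7.5 elsewhere). The last was LOC100044289, unnamed here, at 4219.5 in mutant 1 and -8 to 7.1 elsewhere. These rows were singled out after their values were seen. No row was above 100 in any other single mouse and within the limit in the remaining 11. Mutant 1 was second to control 4 in summed pancreatic acinar intensity. Neither the part of acinar transcripts in these rows nor that of the mixed strain was tested, and the alpha-defensin genes carried by each mouse were not read. Control 4 read -13.9 for DEFCR4, -2.1 for DEFCR-RS7 and -1.1 for AY761185.

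**Figure D4:**
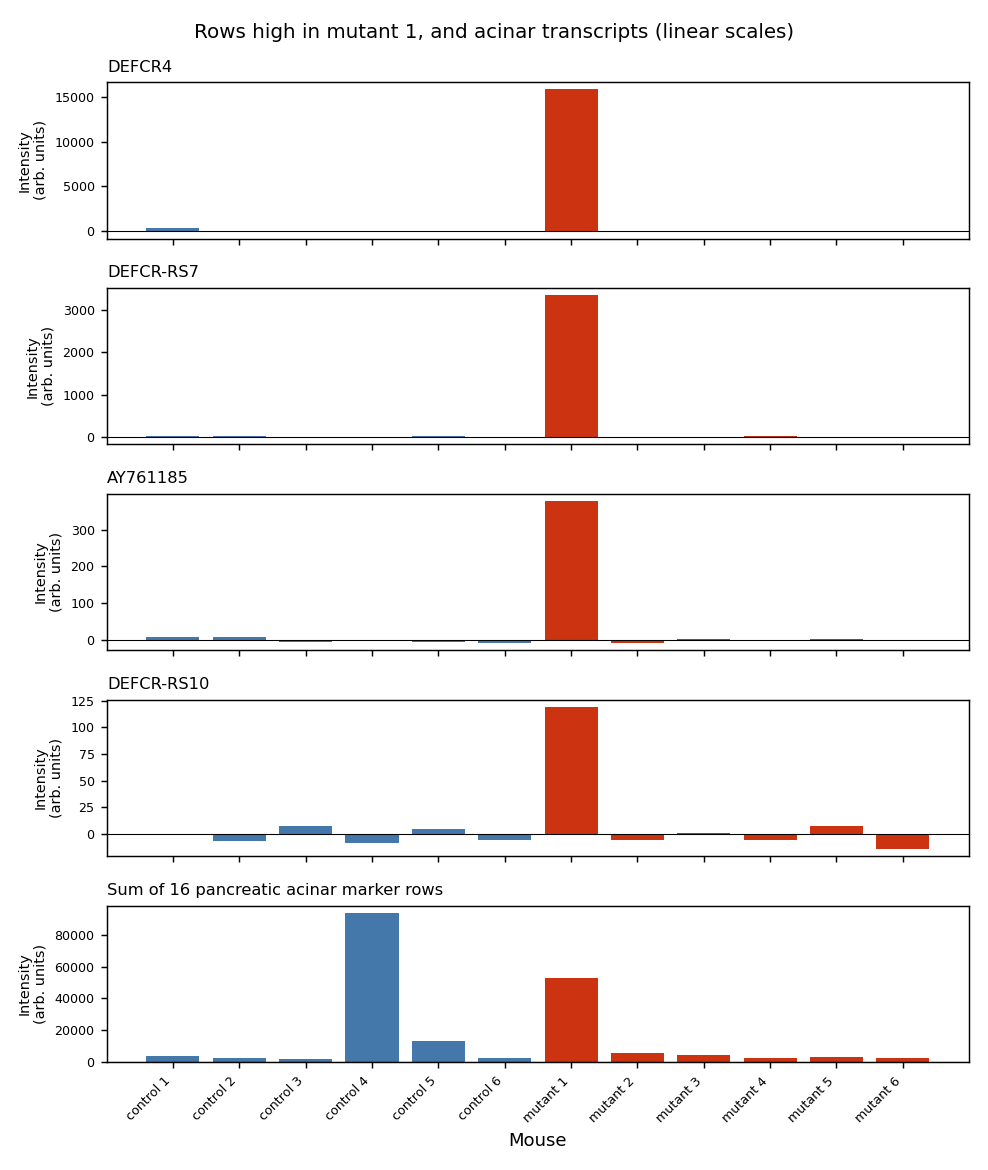
Deposited intensity by mouse, on linear axes with bars drawn from 0, of DEFCR4, DEFCR-RS7, AY761185 and DEFCR-RS10, with the sum of 16 pancreatic acinar rows below. Bars are single mice (blue controls, red mutants): the 4 defensin rows are highest in mutant 1, while the acinar sum is highest in control 4 (93665) and second in mutant 1 (52728).

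Besides the 9 rows, 4 further alpha-defensin rows were examined, among them AY761185 and DEFCR-RS10. The pseudogene row DEFA-PS1 was called higher with both group means within the noise limit (adjusted p = 0.0163). The rows AY761185, DEFCR-RS10 and DEFCR-RS12 missed the threshold (adjusted p 0.599, 0.679 and 0.842). Beta-defensins are a related family made by epithelial cells of many organs. Of 34 DEFB rows none was called higher, 1 (2.94%) was called lower, against 4.48% of all rows, and 31 had both group means within the noise limit (median log2 difference -0.01). The 1 called row was DEFB37, with 73.3 ± 15.3 in controls and 25.1 ± 15.6 in mutants (log2 difference -0.59, SE 0.10, adjusted p = 0.00296).

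Within each group the 7 rows varied together from mouse to mouse. Mutant 4 was the lowest mutant in all 7 rows, at 0.205 (DEFCR26) to 0.73 (DEFCR6) of the median mutant. Mutant 1 was the highest mutant in 4 rows and mutant 3 in the other 3. Control 1 was the highest control in all 7. After the group means were removed, the 21 pairs of rows correlated at r = 0.47 to 0.94 over the 12 mice (median 0.78), and at 0.51 to 0.98 over the 6 mutants alone. Over the 12 mice the highest value was that of DEFCR5 with DEFCR20, and DEFCR6 and DEFA1 correlated at 0.88, while DEFCR6 with DEFCR21 had the lowest. These correlations describe rows read on the same arrays, with probes that may share targets.

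**Figure D5:**
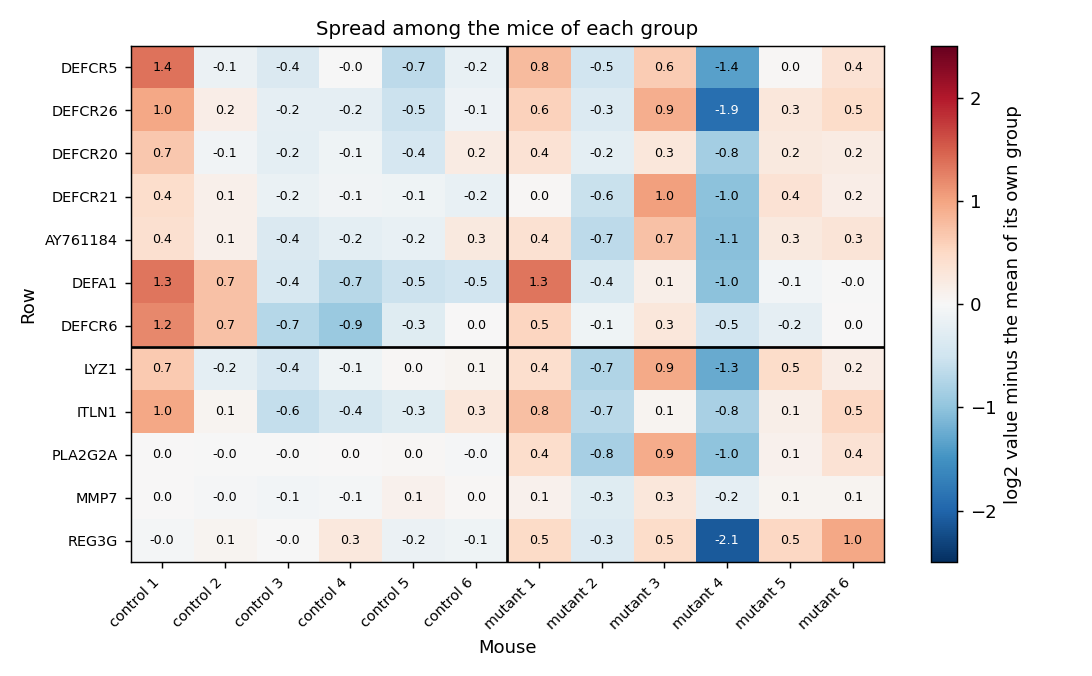
Log2 value of each row in each mouse minus the mean of that mouse's group, for the 7 alpha-defensin rows that rose (upper block) and for 5 other Paneth cell products (lower block). The lower block leaves out Lyz, Reg3a, Reg3b, Fzd5 and Habp2, which also rose. Its rows Mmp7, Pla2g2a and Reg3g were within the noise limit in every control. Red is above and blue below the group mean; mutant 4 is below it in all 12 rows, and control 1 is above it in all 7 alpha-defensin rows.

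The other products of Paneth cells were taken from a list of 35 genes, of which 30 had a row. In it 10 rose and none fell, against 4.71% of all rows called higher. The median log2 difference of the list was 0.26, against -0.01 over all rows, and 8 had both means within the noise limit. Lyz1, the Paneth cell lysozyme, ranged from 75.2 to 237.1 in controls and from 2462.3 to 11654.4 in mutants (log2 difference 4.97, adjusted p = 5.91e-07). Pla2g2a, a secreted phospholipase that attacks bacterial membranes, read -12.2 to -9.7 in controls and 102.4 to 586.7 in mutants (2.52, adjusted p = 5.93e-05). Both had their lowest mutant value in mutant 4. The defensin-processing protease Mmp7 read -7.5 to 1.4 in controls and 11 to 52.6 in mutants (0.60, adjusted p = 0.000991), a call that ended with values floored at the noise limit (adjusted p = 0.209). Itln1, an intelectin that binds microbial sugars, rose from 112.3 ± 82.2 to 2761 ± 1169, and Habp2 from 20.1 ± 5.1 to 122.3 ± 58.5. Itlnb, also on the list, read 3850 ± 2649 in controls and 11996 ± 4902 in mutants. Its groups overlapped and it was not called (limma adjusted p = 0.0608), nor was Lyz2 (limma adjusted p = 0.26). Fzd5, a Wnt receptor required for Paneth cell maturation, rose from 2033 ± 178 to 2777 ± 236 (0.43, adjusted p = 0.00199). The list's other calls were Lyz, Reg3a, Reg3b and Reg3g. Ang4, an antimicrobial ribonuclease of Paneth cells, read 687.4 ± 365.5 and 1498 ± 770 (adjusted p = 0.133), and the transcription factor Atoh1 was within the noise limit in every mouse. Sox9, Spdef, Gfi1 and Xbp1 were above the noise limit in every mouse and were not called (limma adjusted p = 0.641, 0.0733, 0.548 and 0.478).

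Markers of other cell types were summed over each mouse beside these results. Of the 6 Paneth cell markers 5 rose and none fell, against 4.71% of all rows called higher. They summed to 531.3 to 1671 in controls and 5609 to 23623 in mutants, with mutant 4 lowest. Lyz1 (6832 ± 3377) and Reg3g (5767 ± 2931) had the highest mutant means among these 6, so the sum mostly followed them. Of 14 neutrophil markers 7 rose and none fell, against 4.71% of all rows called higher. Their sum was 402.1 to 545.2 in controls and 3592 to 13653 in mutants. The highest mutant means among them were those of S100a8 (130.6 ± 41.8 in controls and 5650 ± 2325 in mutants) and S100a9 (31.4 ± 13.7 and 1428 ± 642), so the sum mostly followed a few rows. The other risen markers were Retnlg (80.3 ± 38.3 and 421.3 ± 203.6, adjusted p = 0.00277), Ltf (48.5 ± 5.7 and 161.5 ± 45.9, 0.000142), Camp (33.5 ± 8.5 and 99.0 ± 39.5, 0.0033), Prtn3 (8.6 ± 6.0 and 37.7 ± 17.7, 0.0146) and Lcn2, which epithelial cells also make (81.6 ± 13.6 and 1341 ± 801). Mpo, Ela2, Csf3r, Il8rb, Fpr1 and Mmp8 had both means within the noise limit, and Ngp read 61.2 ± 20.2 and 96.9 ± 48.9 (adjusted p = 0.298). Erythroid markers moved the other way: 3 of 6 fell (Hba-a1, Hbb-b2 and Eraf) and none rose, and their sums did not overlap, at 20652 to 32204 in controls and 10697 to 20229.9 in mutants. Of 8 monocyte or macrophage markers, Cd14 and Mrc1 rose and Csf1r and Emr1 fell, with sums of 4480 to 5819 and 4599 to 6843. Of 5 smooth muscle markers, Cnn1 rose and none fell, with sums of 15437 to 24394 and 19972 to 29115. Goblet cell markers, with 1 of 6 higher and 1 lower, summed to 12257 to 19461 and 14809 to 20134. Beside each of these counts, 4.71% of all rows were called higher and 4.48% lower. The part of these cell types in the alpha-defensin result was not tested.

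The rows most like the alpha-defensins in their spread within groups were taken from the 10192 other rows with a group mean above the noise limit. Likeness was the correlation of group-centred log2 values over the 12 mice with the mean profile of the 7 rows. The 8 highest were P2RY14 (r = 0.94), SYT4 (0.94), TSPAN6 (0.94), INHBA (0.91), VIP (0.91), RORA (0.90), NXT2 (0.90) and ZFP202 (0.90). Of the 10 Paneth cell list genes that rose, Lyz1 and Itln1 stood highest, at places 13 and 14 (both 0.89), whereas Reg3b stood at place 2478 (0.30), Reg3a at 3856 (0.14) and Fzd5 at 8571 (-0.42). The ranking leaned on single mice, for without control 1 only 1 of the 8 was again among the first 8.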

How the data were processed

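Per the labels' protocols, Trizol RNA of intestine was cleaned on RNeasy columns and made into biotin-labelled cRNA with the Ambion Illumina TotalPrep kit. GenomeStudio and Partek are named per the submitters' processing notes, without version or role. The deposited intensity values, 1 per gene symbol and mouse, were linear, with 22.5% below 0 and column medians of 41.8 to 43.4, so background subtraction and normalization had already been done by the authors. A table with 24 columns of per-sample values matching no label was not used.

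Groups came from the sample titles. The deposited intensities were passed through normexp (offset 50), put on the log2 scale, quantile normalized and fitted with limma 3.58.1 in R 4.3.3 (group as the only term, eBayes, Benjamini-Hochberg over 18090 rows). Single rows and pairs were also given exact permutation tests. Normalization hides shifts of all rows together, and precision is limited by how many mice were arrayed. Promoter windows were aligned with Biopython 1.88. All members were named, and likeness named 8 more rows; list members were named as illustrations. One family row is not reported here and was left out of the likeness ranking. Members, lists and tests were chosen with earlier results of these data known. Alternatives were other offsets and floors, normalizations, a filter, variance models, array weights, the replicate block and mice left out.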

Additional observations from a re-analysis of the deposited data

Results flagged for a closer look

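In a group of 6, the highest mouse lay farther from the rest than Dixon's 95% limit allows in 10 of 54 row and group combinations examined. Mutant 1 was that mouse for DEFCR4 (15808), DEFCR-RS7 (3343.9), DEFA1 (3795.6), AY761185 (377.5), DEFCR-RS10 (119) and REG3A (3030.2). Control 1 was that mouse for DEFCR4 (340.4), DEFCR5 (321.5), DEFCR26 (256.5) and LYZ1 (237.1). Some of these rows had been singled out for mutant 1 beforehand, and many of the rows varied together. The count of flags can therefore not be set against a chance rate.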

How the results depend on the processing

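The count of 7 alpha-defensin rows called higher and 0 called lower was the same in all 22 alternatives, and their adjusted p reached at most 0.0169 (DEFCR6, values floored at the noise limit). The count of all rows called fell from 1663 to 1004 with that floor, and was 1247 to 1694 when 1 mouse was left out. DEFCR4 passed in no alternative and turned to -0.12 with values floored at 1 and to -0.81 without control 4 and mutant 1, where DEFCR-RS7 turned to -0.10, AY761185 to -0.013 and DEFCR-RS10 to -0.064. Leaving out 1 mouse gave -0.66 to 1.09 for DEFCR4, -0.069 to 1.08 for DEFCR-RS7, -0.013 to 0.55 for AY761185 and -0.036 to 0.31 for DEFCR-RS10, the lowest each time without mutant 1. The number of pairs of rows with an exact permutation p under 0.05 was 8 of 14, 3 with values floored at 1, 14 without control 4 and mutant 1, and 6 to 14 with 1 mouse left out. The cause was not tested beyond which mouse was left out. Median correlation between the 7 rows stayed at 0.74 to 0.83 with 1 mouse left out. Other calls that ended were DEFB37 with values floored at 1 (adjusted p = 0.0522) and DEFA-PS1 without control 4 and mutant 1 (0.0579) and with the noise limit as floor (1). Ptpn11 passed without control 3, as higher in the mutants (log2 difference 0.25, adjusted p = 0.043). The deviations of same-numbered mice from their group means correlated at r from -0.11 to 0.27 over 6 numbers, highest for numbers 3 and 6. No test was run on these values and the labels say nothing of pairing, so they cannot decide whether mice were paired. With the replicate block 1702 rows were called, the 7 alpha-defensin rows among them, with DEFCR6 at 0.00126. Ang4 passed there (0.0154) and so did Ptpn11 (0.044), again higher in the mutants.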
